A study of Mus musculus with 10 samples.

Results

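Serpins are a family of proteins that share one fold, and most of them inhibit proteases. A flexible loop of the serpin is offered to the protease as bait, and once the protease cuts it the serpin changes shape and traps the enzyme in a dead complex. Liver cells make most of the serpins of the blood, which hold clotting, clot lysis, complement and neutrophil proteases in check, while the Serpinb genes encode serpins that mostly stay inside cells. A few members, such as the hormone carriers and the collagen chaperone HSP47, have lost the inhibitory role.

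The serpin genes were taken as all genes whose symbol is Serpin followed by a clade letter a to i, a number and at most 1 further letter, which gave 63 of the 49568 genes in the table. Of these, 25 belong to clade a and 27 to clade b, and the others to clades c to i. Their RNA was measured in reactive cholangiocytes, the cells of injured and expanding bile ducts, sorted from the livers of 5 *Smad4del* and 5 *Ctl* mice, with 1 sample per mouse. The *Smad4del* mice are *Smad4fl/fl* by the labels and carried *Alb-Cre*, which drives recombination in hepatocytes and cholangiocytes. The *Ctl* mice are *Smad4wt/wt* by the labels and, by the methods of the study, carried no *Alb-Cre*, so that an effect of Cre itself cannot be told apart from that of *Smad4* loss. All mice had been fed 0.1% DDC, a compound that blocks bile ducts with porphyrin, for 2 weeks, were of mixed genetic background and were littermates where possible. Sex and age are not in the labels. *Xist*, a transcript of female cells, had 889 normalized counts in *Smad4del* mouse A5447. It had 769 and 823 in *Ctl* mice A5221 and A5628, and at most 1.70 in any other mouse. Cells were sorted as EPCAM+, CD45- and TER119-, and the values are normalized counts, reads per gene divided by 1 size factor per mouse.

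Of the 62 members described, 14 had no read in any mouse, 13 had reads but a mean below 10, and 35 reached the mean normalized count of at least 10 needed for testing. Reads were found in all 10 mice for 30 of the 62. In GENCODE M21 on GRCm38, 24 members stood in a cluster on chromosome 12 between positions 103614786 and 104414329, 12 of the Serpinb genes between 106861173 and 107610484 on chromosome 1, and the other 15 Serpinb genes between 32842092 and 34002794 on chromosome 13. The other 11 members were spread over other places. All 14 undetected members belonged to these clusters except *Serpini2*.

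*Serpina1a* to *Serpina1e*, the mouse copies of the gene for alpha-1-antitrypsin, the main blood inhibitor of neutrophil elastase, are the members whose counts are hardest to separate. Their coding sequence before the end of the bait loop is shown because it holds the bait loop, in which the copies differ. Each line gives 75 coding bases read from GENCODE M21 on GRCm38, and capitals mark the 15 positions at which the 5 genes are not all alike.
*Serpina1a*: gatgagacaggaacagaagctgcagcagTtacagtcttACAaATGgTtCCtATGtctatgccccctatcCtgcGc
*Serpina1b*: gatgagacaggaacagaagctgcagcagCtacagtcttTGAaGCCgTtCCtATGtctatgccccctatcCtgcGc
*Serpina1c*: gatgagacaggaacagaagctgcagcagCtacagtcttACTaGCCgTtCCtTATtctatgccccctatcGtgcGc
*Serpina1d*: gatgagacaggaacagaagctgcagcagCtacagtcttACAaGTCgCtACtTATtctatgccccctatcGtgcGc
*Serpina1e*: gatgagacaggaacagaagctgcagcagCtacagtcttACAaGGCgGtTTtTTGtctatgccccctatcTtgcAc
The codon just before the bond that a protease cuts, the last capital codon before the run tctatgcc, was ATG in *Serpina1a* and *Serpina1b* and TAT in *Serpina1c* and *Serpina1d*, while *Serpina1e* had TTG. Pairs of these genes differed at 4 to 10 of the 75 bases. Over all exons, 69.3% of the 100-base windows of *Serpina1c* also occur in another gene, against 42.8% for *Serpina1a*, 29.3% for *Serpina1d*, 14.8% for *Serpina1b* and 14.4% for *Serpina1e*. Reads of this length from such windows cannot be placed, and the sources do not say whether multi-mapping reads were counted in these values. The levels of these 5 genes relative to one another are therefore uncertain.

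Promoter sequences from RefSeq (GRCm38.p6) were matched for 53 members. The last 100 bases before the start of *Serpina1b* and *Serpina1c* are shown because these copies of 1 cluster had unlike counts in some mice. Capitals mark GTTAAT, part of the site of the liver factor HNF1.
*Serpina1b*, chr12:103738190-103738289, minus strand: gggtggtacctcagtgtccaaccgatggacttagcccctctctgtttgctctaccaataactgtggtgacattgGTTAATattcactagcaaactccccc
*Serpina1c*, chr12:103904951-103905050, minus strand: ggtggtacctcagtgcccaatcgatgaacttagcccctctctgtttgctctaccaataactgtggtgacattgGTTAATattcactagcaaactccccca
GTTAAT, searched on both strands over 250 bases before the start, was found in 11 of the 53 member promoters, those of *Serpina1a* to *Serpina1e* among them, and in 6.52% of all 27025 promoters. CAGAC, the SMAD box, was found in 25 of the 53 and in 42.1% of all, TATAAA in 13 and in 12.97%, TGANTCA, an AP-1 site, in 11 and in 6.87%, and TTCNNNGAA, a STAT site, in 7 and in 7.18%. Of the 8 members called between the cohorts, 5 had a promoter in the table, and the 250 bases of each are shown, with all matches to these letters in capitals.
*Serpinb2*, chr1:107511173-107511422, plus strand: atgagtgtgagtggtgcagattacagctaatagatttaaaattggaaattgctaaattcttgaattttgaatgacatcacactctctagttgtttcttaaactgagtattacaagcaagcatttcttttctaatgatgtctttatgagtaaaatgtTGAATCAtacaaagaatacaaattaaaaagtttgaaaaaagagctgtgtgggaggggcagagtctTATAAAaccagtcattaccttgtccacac
*Serpinb5*, chr1:106860925-106861174, plus strand: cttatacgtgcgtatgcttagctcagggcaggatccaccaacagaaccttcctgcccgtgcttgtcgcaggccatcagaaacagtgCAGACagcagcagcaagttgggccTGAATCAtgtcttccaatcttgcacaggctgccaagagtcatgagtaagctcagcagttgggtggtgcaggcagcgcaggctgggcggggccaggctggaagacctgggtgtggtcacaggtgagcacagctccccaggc
*Serpinf1*, chr11:75422624-75422873, minus strand: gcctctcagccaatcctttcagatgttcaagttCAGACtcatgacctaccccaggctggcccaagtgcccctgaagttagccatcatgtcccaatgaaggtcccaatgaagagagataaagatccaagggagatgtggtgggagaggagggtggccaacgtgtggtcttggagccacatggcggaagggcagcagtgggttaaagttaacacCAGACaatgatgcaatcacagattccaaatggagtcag
*Serpina3n*, chr12:104406458-104406707, plus strand: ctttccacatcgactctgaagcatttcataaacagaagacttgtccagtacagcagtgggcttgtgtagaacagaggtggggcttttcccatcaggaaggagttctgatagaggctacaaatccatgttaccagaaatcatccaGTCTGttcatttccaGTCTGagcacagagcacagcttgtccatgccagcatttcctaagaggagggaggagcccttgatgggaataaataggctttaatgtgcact
*Serpine2*, chr1:79858666-79858915, minus strand: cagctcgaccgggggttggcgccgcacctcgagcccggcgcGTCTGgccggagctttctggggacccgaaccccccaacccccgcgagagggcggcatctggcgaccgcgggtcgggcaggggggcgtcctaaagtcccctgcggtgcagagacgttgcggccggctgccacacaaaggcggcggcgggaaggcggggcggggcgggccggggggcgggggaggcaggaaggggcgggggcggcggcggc
The *Serpinb2* stretch holds TGANTCA and TATAAA, and the *Serpinb5* stretch CAGAC and TGANTCA. *Serpinf1* holds CAGAC 2 times, *Serpina3n* 2 times on the other strand, as GTCTG, and *Serpine2* 1 time on the other strand. *Serping1*, *Serpina10* and *Serpinb1a* had no entry in the promoter table.

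The libraries held 16734672 to 19710560 reads on genes in *Smad4del* mice and 16249719 to 21277339 in *Ctl* mice. *Smad4* had 687 to 1031 normalized counts in *Smad4del* mice, against 2969 to 3714 in *Ctl* mice (log2 fold change -1.96, limma adjusted p = 1.1e-05). The cholangiocyte markers *Epcam* and *Krt19* were high in every mouse, with at least 24052 counts of *Epcam* in *Smad4del* mice and 16857 in *Ctl* mice. *Krt19* was higher in *Smad4del*, 30191 ± 5034 against 20800 ± 2472 in *Ctl* mice (SD, n = 5 each, log2 fold change 0.53, limma adjusted p = 0.0270), and of 14 cholangiocyte markers 3 were higher and 1 lower, with 13 log2 fold changes above 0. The part of this shift in the results for serpins was not tested. Over all genes tested, 2.43% were called higher and 4.69% lower. Sorted cells still held RNA of other cells, and its amount moved with the cohort. Of 18 endothelial markers tested 16 were lower in *Smad4del* and 0 higher, and their summed count was 10745 to 22755 in *Smad4del* mice, against 29727 to 84318 in *Ctl* mice. Of 16 stellate cell and fibroblast markers 3 were lower, with sums of 22650 to 32137 in *Smad4del* mice and 34930 to 68825 in *Ctl* mice. None of 17 macrophage and none of 21 hepatocyte markers passed the test, but all 17 macrophage markers had log2 fold changes below 0, with a median of -2.46, against -1.54 for the endothelial markers and 0.44 for the hepatocyte markers. The macrophage sum was 28956 to 116420 in *Smad4del* mice and 40340 to 340130 in *Ctl* mice, and its highest value was in *Ctl* mouse A5215, which also had the lowest *Epcam* count. In bulk samples, fewer cells of a type and less RNA per cell cannot be told apart.

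Per kilobase of exon, *Serping1* (C1 inhibitor) had the highest mean of the members described in both cohorts, with 2533 normalized counts per kb in *Smad4del* mice and 4317 in *Ctl* mice. Below it the order of the means was not the same in the cohorts. *Serpinh1* (HSP47, the chaperone of collagen) had 1823 per kb in *Smad4del* and 1427 in *Ctl*, *Serpinb9*, an inhibitor of granzyme B inside cells, 1456 in *Smad4del* and 1503 in *Ctl*, and *Serpinb6b* 1342 in *Smad4del* and 1451 in *Ctl*. The order of these 3 genes did not stand out from the spread between mice. *Serpina1b*, with 2082 per kb in *Smad4del* and 1361 in *Ctl*, and *Serpina1c*, with 1583 in *Smad4del* and 1290 in *Ctl*, lay in the same range, with the uncertainty of shared windows given above. At the low end of the 35 tested genes, *Serpinb2* had 8.96 per kb in *Smad4del* and 0.315 in *Ctl*, and *Serpina12* 4.64 in *Smad4del* and 1.11 in *Ctl*.

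**Figure D1:**
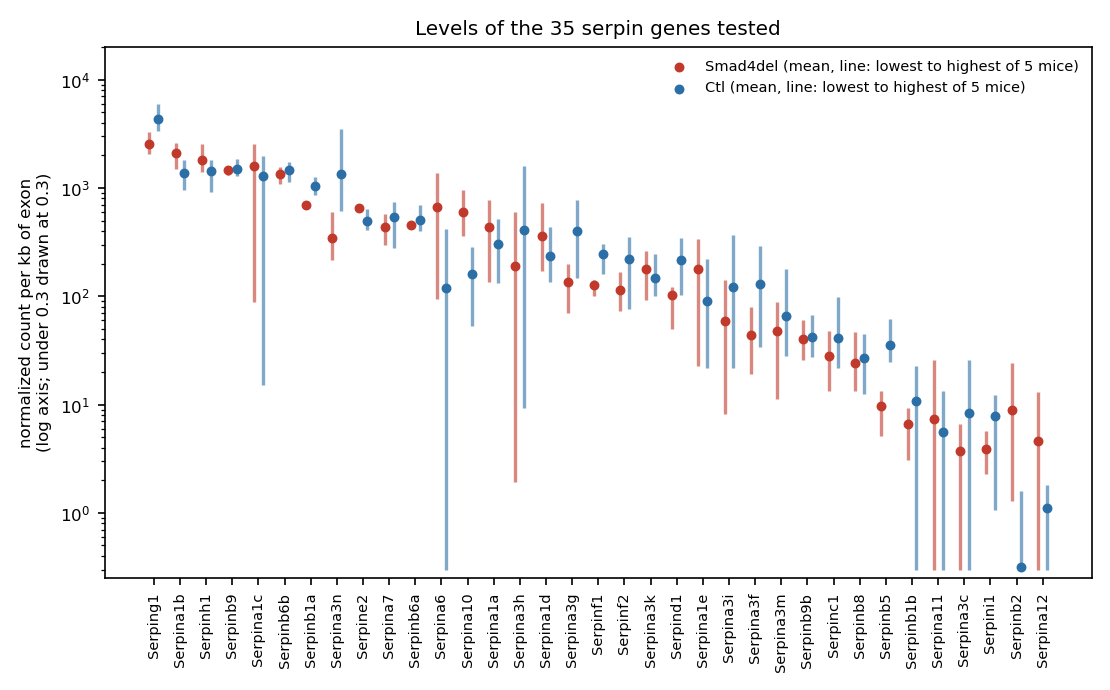
Normalized count per kb of exon (log axis) of the 35 serpin genes tested, ordered by their mean over all mice, with points for the mean of 5 *Smad4del* (red, left) or 5 *Ctl* mice (blue, right) and lines from the lowest to the highest mouse. Long lines, as for *Serpina1c*, *Serpina6* and *Serpina3h*, show genes that differed strongly between mice of 1 cohort.

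Which serpin genes depend on *Smad4* was asked by comparing the cohorts. Limma on log2(normalized count + 1), adjusted over all 14870 genes tested, called 8 of the 35 serpin genes described. *Serpina10*, *Serpinb2* and *Serpine2* rose in *Smad4del*, and *Serping1*, *Serpinf1*, *Serpinb5*, *Serpinb1a* and *Serpina3n* fell. Over all genes tested 7.12% were called, 2.43% as higher and 4.69% as lower, against 3 higher and 5 lower of 35 here. The cohorts did not overlap for 6 of the 35 (17.1%), against 8.09% of all genes tested. These 6 were the called genes other than *Serpine2* and *Serpinb2*. The median log2 fold change of the 35 genes was -0.10, with 14 above and 21 below 0, and that of all genes -0.005. Serpin genes varied more between mice of a cohort than most genes, with a median within-cohort SD of 0.83 on the log2 scale against 0.30 for all genes tested. Another 6 members, *Serpina1b*, *Serpina6*, *Serpina3f*, *Serpina3g*, *Serpind1* and *Serpinf2*, had an unadjusted p under 0.05 only. With the 8 called these are 14 of 35, and 27.4% of all genes tested had an unadjusted p under 0.05. Of these, *Serpina1b* was called without A5447 (log2 fold change 0.76), *Serpinf2* and *Serpind1* without A5221 (-1.20 and -1.28), *Serpina3f* without A5219 (-1.87) and *Serpina3g* without A5215 (-1.75). Without A5215, A5626, A5628, A5216, A5217 or A5624, *Serpina10* was the 1 serpin gene called higher of those described. With the endothelial marker level as a covariate, limma called 0 of all 14870 genes, and 6 serpin genes had an unadjusted p under 0.05 (3 higher, 3 lower), as did 4.87% of all genes. In this fit the log2 fold changes of the called genes were 2.497 for *Serpina10*, 4.92 for *Serpinb2*, 0.058 for *Serpine2*, -0.78 for *Serping1*, -0.27 for *Serpinf1*, -1.75 for *Serpinb5*, -0.62 for *Serpinb1a* and 0.49 for *Serpina3n*. That level did not overlap between the cohorts, so its part in these results cannot be told apart from that of the genotype.

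**Figure D2:**
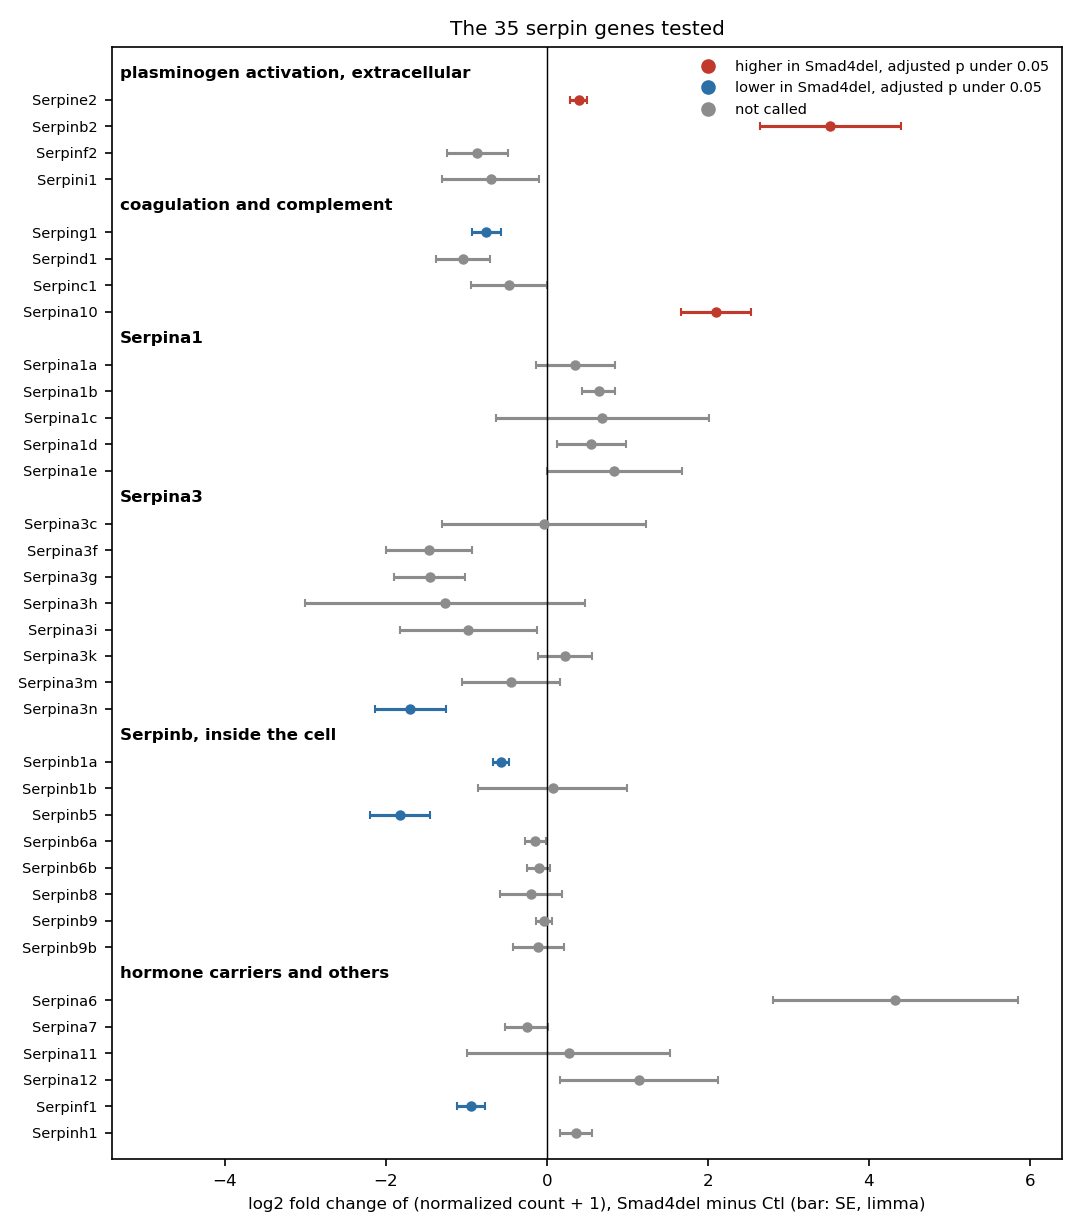
Log2 fold change of (normalized count + 1), *Smad4del* minus *Ctl*, with the SE from limma for each of the 35 serpin genes tested, grouped by role. Red marks the 3 genes called higher, blue the 5 called lower, and grey the 27 not called.

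Of the serpins described here that act on plasminogen activation, *Serpinb2* and *Serpine2* rose. Plasminogen activators cut plasminogen to plasmin, the enzyme that dissolves clots and loosens matrix, and *Serpinb2* (PAI-2) and *Serpine2* (protease nexin-1) inhibit the activators. *Serpinb2* was nearly absent from *Ctl* cells. It had 57.0, 11.98, 3.04, 17.5 and 15.7 normalized counts in *Smad4del* mice, against 3.70 in 1 *Ctl* mouse and 0 in the other 4. In reads these were 104 in *Smad4del* and 4 in *Ctl*, and only the lowest *Smad4del* mouse, A5218, lay below the highest *Ctl* mouse. The log2 fold change was 3.52 ± 0.87 (SE, limma adjusted p = 0.0341, exact permutation p = 0.0159, n = 5 each). With counts this low its size depends on the pseudocount, from 1.33 at 10 to 4.29 at 0.5, and at 10 the call was lost. *Serpinb2* shares exon sequence with *Serpinb10*, which had 1 read in all. The call was kept without A5219, A5221 or A5218 and lost without any of the other 7 mice (adjusted p of 0.0248 to 0.0764 with 1 mouse left out), and with the hepatocyte or macrophage marker level as a covariate the call was lost while the log2 fold change was 3.52 and 3.74.

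*Serpine2*, which also inhibits thrombin, was among the 3 serpin genes with the highest counts of those described. It had 5081, 5651, 5413, 5547 and 5303 in *Smad4del* mice, against 3687, 5313, 3992, 3419 and 4322 in *Ctl* mice. The *Smad4del* mice lay close together, and 1 *Ctl* mouse, A5219, reached their range. It rose by 0.40 ± 0.11 on the log2 scale (limma adjusted p = 0.0479; exact permutation p = 0.0238, n = 5 each), just inside the threshold. The call was kept without A5219 and lost without any of the other 9 mice (adjusted p of 0.00813 to 0.112). *Serpine2* also lost its call in edgeR, an alternative fit to the reads of all mice. With the macrophage marker level as a covariate its log2 fold change was 0.29 (adjusted p = 0.176), and with the endothelial level 0.058. *Serpinf2* (alpha-2-antiplasmin), which blocks plasmin itself, averaged 263 ± 86.7 in *Smad4del* and 516 ± 245 in *Ctl* mice (SD, n = 5 each; limma adjusted p = 0.162). *Serpini1* (neuroserpin), an inhibitor of tissue plasminogen activator, averaged 28.4 ± 9.80 in *Smad4del* and 57.0 ± 30.8 in *Ctl* mice (adjusted p = 0.474).

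The median log2 fold change of 11 other genes of plasminogen activation was -0.13. Beside 2.43% higher and 4.69% lower of all genes tested, 0 of the 11 were higher and 2 lower in *Smad4del*. *Thbd* (thrombomodulin), a thrombin receptor of vessel walls, averaged 977 ± 366 in *Smad4del* and 3737 ± 1681 in *Ctl* mice, and *Lrp1*, a receptor that clears complexes of serpins with proteases, 956 ± 244 in *Smad4del* and 3431 ± 2541 in *Ctl* mice (SD, n = 5 each, limma adjusted p = 0.00648 and 0.0208). The target of PAI-2 with the higher count, *Plat* (tissue plasminogen activator), had 5139 ± 2017 in *Smad4del* and 5318 ± 798 in *Ctl* mice, and *Plau* (urokinase) 39.6 ± 22.6 in *Smad4del* and 63.8 ± 4.3 in *Ctl* mice; neither passed the test (limma adjusted p = 0.763 and 0.195).

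The serpins of complement and clotting also moved both ways. *Serping1*, which blocks the C1 proteases that start the classical complement pathway and kallikrein of the contact system, had 4832, 5134, 6429, 7647 and 5403 normalized counts in *Smad4del* mice, against 8580, 7900, 13947, 7799 and 11956 in *Ctl* mice. Every *Smad4del* mouse was below every *Ctl* mouse, with 7647 and 7799 as the nearest values. *Serping1* fell by 0.75 ± 0.18 on the log2 scale (limma adjusted p = 0.0310; exact permutation p = 0.00794, the smallest that 5 mice against 5 allow). Its call was lost without A5216, A5217, A5218 or A5624 (*Smad4del*) and without A5221 or A5628 (*Ctl*), with adjusted p of 0.0196 to 0.0819 with 1 mouse left out. Of 10 complement genes, most of them of the classical pathway, 0 were higher and 2 lower (2.43% and 4.69% of all genes tested). *C1s1* had 701 ± 285 in *Smad4del* and 1332 ± 266 in *Ctl* mice (SD, n = 5 each, limma adjusted p = 0.0304). *C4b* had 3177 ± 392.3 in *Smad4del* and 5898 ± 2438 in *Ctl* mice (SD, n = 5 each, limma adjusted p = 0.04995). The median log2 fold change of the 10 genes was -0.89, beside -2.46 for the macrophage markers, whose part was not tested. *C1qa*, *C1qb* and *C1qc* are in both lists, so these medians are not independent.

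*Serpina10*, the protein Z-dependent inhibitor of clotting factor Xa, had far more reads than *Serpinb2* and also rose several-fold. It had 3343, 1673, 1861, 1261 and 2376 in *Smad4del* mice, against 961, 989, 187, 334 and 352 in *Ctl* mice. Every *Smad4del* mouse was above every *Ctl* mouse, and the *Ctl* mice themselves fell into values near 1000 (A5215, A5219) and values of 352 or less. The log2 fold change was 2.11 ± 0.44 (SE, limma adjusted p = 0.0173, exact permutation p = 0.00794, n = 5 each), and it stayed between 1.78 and 2.38 and was called with each mouse left out. Hepatocytes are the main known source of *Serpina10*. With the hepatocyte marker level as a covariate its log2 fold change was 1.75 (limma adjusted p = 0.0382), and over 10 mice, after subtracting cohort means, its r with that level was 0.57. The part of hepatocyte RNA in the difference was not tested.

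The thrombin inhibitors *Serpind1* and *Serpinc1* were not called. *Serpind1* (heparin cofactor II), an inhibitor of thrombin, averaged 223 ± 67.5 in *Smad4del* and 472 ± 198 in *Ctl* mice (log2 fold change -1.04, limma adjusted p = 0.0766, exact permutation p = 0.0317, n = 5 each). *Serpinc1* (antithrombin) averaged 241 ± 134 in *Smad4del* and 353 ± 276 in *Ctl* mice (SD, n = 5 each; limma adjusted p = 0.546), and 32.2% of its exon windows also occur in another gene, *Zbtb37*. The median log2 fold change of 22 clotting and contact genes was -0.48. Beside 2.43% higher and 4.69% lower of all genes tested, 0 of the 22 were higher and 3 lower in *Smad4del*. These were *F2r*, a thrombin receptor, with 828 ± 113 in *Smad4del* and 3262 ± 1016 in *Ctl* mice, *Pros1* (protein S) with 2629 ± 230 in *Smad4del* and 4743 ± 1255 in *Ctl* mice, and *F8* with 345 ± 188 in *Smad4del* and 1121 ± 641 in *Ctl* mice. *F2r*, *F8* and *Thbd* are also well known from endothelial cells, whose markers were lower in *Smad4del*, and their part in these values was not tested.

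**Figure D3:**
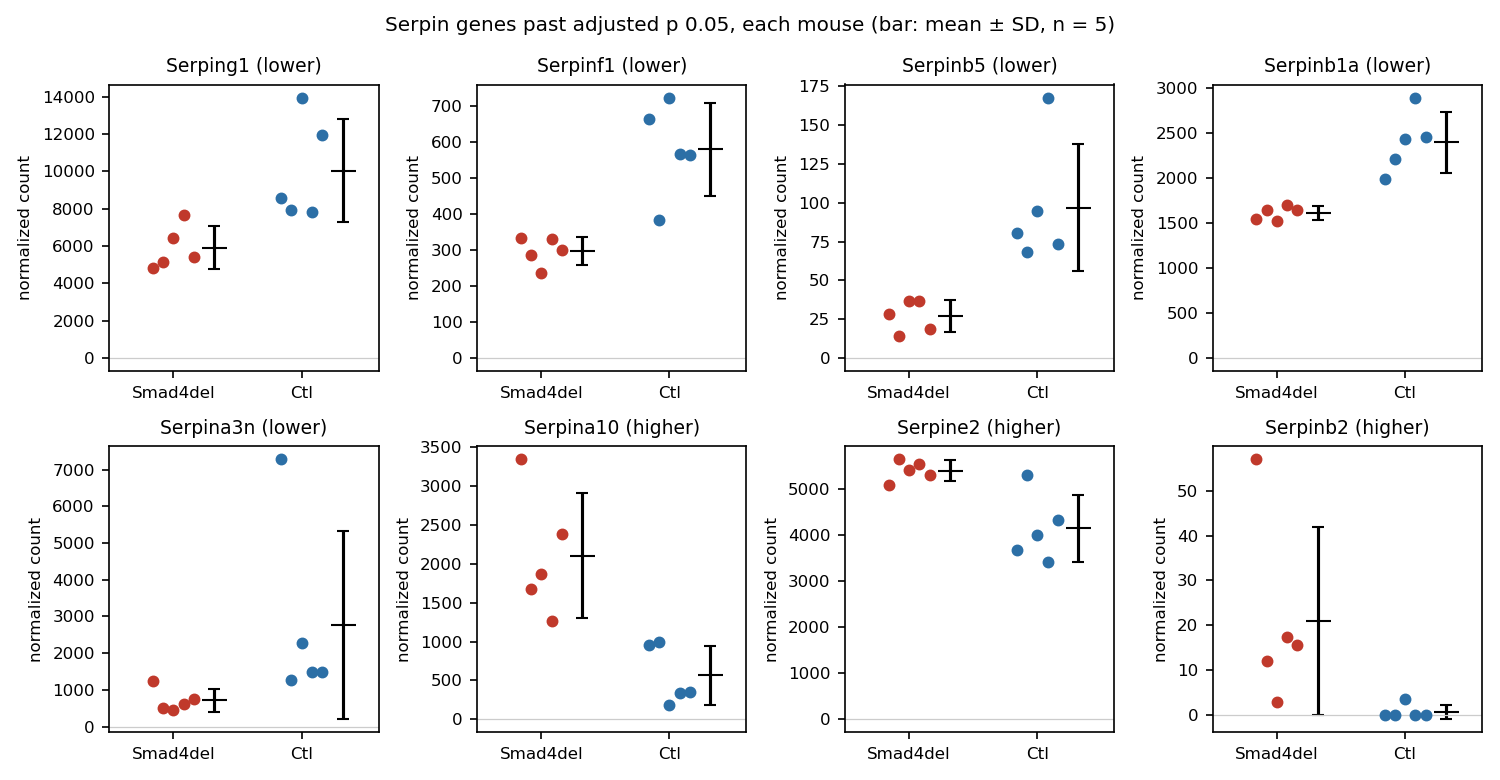
Normalized counts of the 8 called serpin genes in each mouse, *Smad4del* (red, left) and *Ctl* (blue, right), with the mean ± SD of 5 mice as a bar beside the points. The cohorts do not overlap in 6 panels, and in those of *Serpine2* and *Serpinb2* they overlap by 1 mouse.

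No Serpina1 gene was called, but mice differed in the copies to which their reads were assigned. *Serpina1b* had 5535, 6313, 4679, 3624 and 4988 normalized counts in *Smad4del* mice, against 4376, 4207, 2324, 2307 and 3215 in *Ctl* mice. Its cohorts overlapped, and the log2 fold change of 0.64 ± 0.21 missed the threshold (limma adjusted p = 0.0742, exact permutation p = 0.0397, n = 5 each). The sum of the 5 genes was 8763 ± 2012 in *Smad4del* and 6071 ± 912 in *Ctl* mice (SD, n = 5 each).

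*Serpina1c* had 120, 3493, 2961, 2700 and 1499 in *Smad4del* mice, against 20.7, 1642, 2426, 2012 and 2675 in *Ctl* mice. It was low in 1 mouse of each cohort, A5216 (*Smad4del*) and A5215 (*Ctl*), in which it made up 1.43% and 0.328% of the counts of the 5 genes, against 18.7% to 46.5% in the other 8 mice. In the same mice *Serpina1b* made up 65.7% and 69.4%, the highest shares of all. As these are shares of the same sum, a low share of *Serpina1c* in itself raises those of the other copies. The log2 fold change of *Serpina1c*, 0.69 ± 1.32 (SE, limma adjusted p = 0.770), says little under this spread, and it was -0.64 without A5215. The labels give no strain for single mice of this mixed background, and genotype at this locus was not tested.

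*Serpina1a*, *Serpina1d* and *Serpina1e*, whose values per mouse are given because of the pattern of *Serpina1c*, share exon windows with other copies, as above. *Serpina1e* had 552, 484, 63.9, 36.8 and 297 in *Smad4del* mice, against 354, 217, 35.2, 65.2 and 56.6 in *Ctl* mice, with 5 mice above 200 and 5 below 66. *Serpina1a* had 1207, 1422, 246, 355 and 750 in *Smad4del* mice, against 956, 656, 242, 435 and 500 in *Ctl* mice. *Serpina1d* had 1011, 509, 239, 249 and 480 in *Smad4del* mice, against 603, 419, 189.7, 221 and 202 in *Ctl* mice. The highest 5 values of each of these genes were in the same mice, A5216, A5217 and A5624 (*Smad4del*) and A5215 and A5219 (*Ctl*). None of the 3 was called (limma adjusted p = 0.675 for *Serpina1a*, 0.421 for *Serpina1d* and 0.544 for *Serpina1e*).

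**Figure D4:**
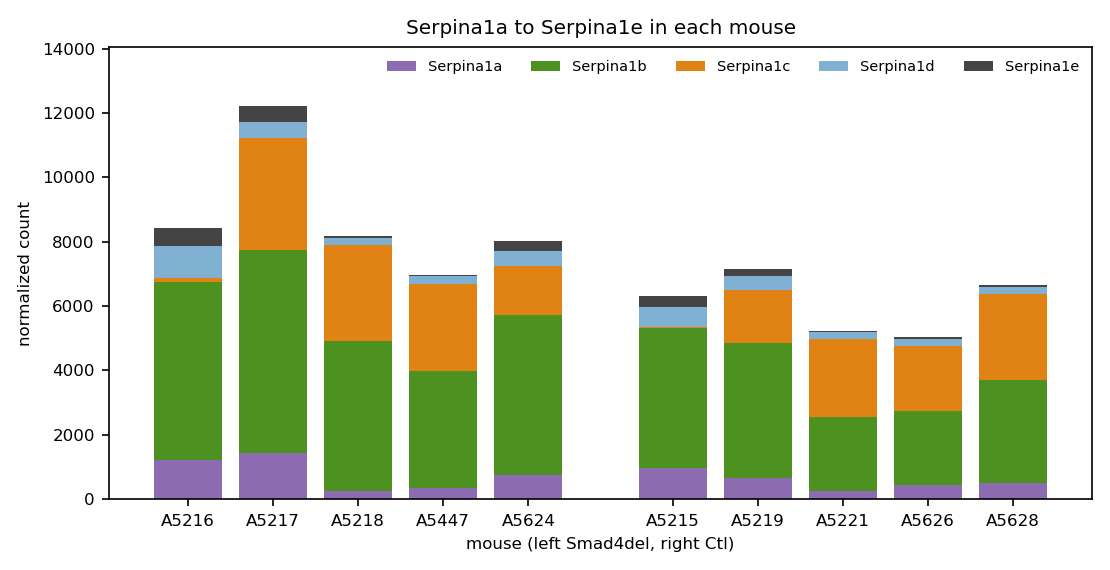
Stacked normalized counts of *Serpina1a* to *Serpina1e* in each of the 5 *Smad4del* (left) and 5 *Ctl* mice (right). *Serpina1c* (orange) is nearly missing in *Smad4del* mouse A5216 and *Ctl* mouse A5215, with 120 and 20.7 counts.

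The Serpina3 genes, a mouse expansion of the gene for alpha-1-antichymotrypsin, an acute phase protein of the liver, had 8 members tested and 1 called. *Serpina3n*, which inhibits leukocyte proteases, had 1249, 498, 447, 611 and 763 normalized counts in *Smad4del* mice, against 7290.5, 1258, 2275, 1493 and 1474 in *Ctl* mice. Every *Smad4del* mouse was below every *Ctl* mouse, but only just, with 1249 and 1258 as the nearest values, and *Ctl* mouse A5215 was far above the others. It fell by 1.69 ± 0.44 on the log2 scale (limma adjusted p = 0.0417; exact permutation p = 0.00794, n = 5 each). The call was lost without A5217, A5218, A5447 or A5624 (*Smad4del*) and without A5221, A5626 or A5628 (*Ctl*), with adjusted p of 0.0311 to 0.103 with 1 mouse left out. It was also lost with the hepatocyte or macrophage marker level as a covariate (log2 fold change -1.81 and -1.08), while the fit with the endothelial level gave 0.49.

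*Serpina3g* averaged 285 ± 125 in *Smad4del* and 850 ± 527 in *Ctl* mice, and *Serpina3f* 99.5 ± 58.9 in *Smad4del* and 299 ± 222 in *Ctl* mice (SD, n = 5 each). Their log2 fold changes of -1.45 and -1.47 missed the threshold (limma adjusted p = 0.0652 for *Serpina3g* and 0.106 for *Serpina3f*). *Serpina3k*, known in mouse as contrapsin, averaged 368 ± 167 in *Smad4del* and 303 ± 118 in *Ctl* mice, and *Serpina3m* 82.6 ± 55.7 in *Smad4del* and 114 ± 107 in *Ctl* mice. *Serpina3k* and *Serpina3m* overlap in their exons. *Serpina3i* averaged 132 ± 126 in *Smad4del* and 271 ± 319 in *Ctl* mice, and *Serpina3c* 8.19 ± 5.61 in *Smad4del* and 18.3 ± 23.9 in *Ctl* mice, and none of these 4 was called.

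*Serpina3h*, annotated as a transcribed pseudogene, is given per mouse because of its wide spread, which was noticed in the data. It had 852, 7.99, 20.3, 2.76 and 474 in *Smad4del* mice, against 2282, 582, 50.9, 13.4 and 22.2 in *Ctl* mice. A5216 and A5624 (*Smad4del*) and A5215 and A5219 (*Ctl*) were high, and the other 6 mice were at 50.9 or below. The log2 fold change was -1.26 ± 1.74 (SE, limma adjusted p = 0.671). The same 4 mice had the highest counts of *Serpina3i*, 313 and 214 in *Smad4del* and 820.5 and 279 in *Ctl*.

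Of the Serpinb genes, which mostly guard cells against proteases released within them, 8 besides *Serpinb2* were tested and 2 were called. *Serpinb1a*, an inhibitor of neutrophil elastase, cathepsin G and proteinase 3, had 1542, 1646, 1526, 1698 and 1648 normalized counts in *Smad4del* mice, against 1991, 2212, 2437, 2899 and 2456 in *Ctl* mice. The *Smad4del* mice lay within a narrow range below all *Ctl* mice. *Serpinb1a* fell by 0.56 ± 0.10 on the log2 scale, and had the smallest adjusted p of the serpin genes described (limma adjusted p = 0.00789; exact permutation p = 0.00794, n = 5 each). With each mouse left out it fell by 0.49 to 0.63. RNA of none of these targets reached the mean normalized count of 10 needed for testing. Though the cells were sorted as CD45-, *Ptprc*, the CD45 gene, had 54.3 to 1176 in *Smad4del* and 94.4 to 2719 in *Ctl* mice. The summed count of 10 neutrophil markers was 103 to 2260 in *Smad4del* and 268 to 4244 in *Ctl* mice. Of a list of 11 serine proteases, most of them of leukocytes, 3 had no read in any mouse and 1 was tested. This was *Cela1*, not one of the targets named, with 157 ± 40.7 in *Smad4del* and 220 ± 32.2 in *Ctl* mice (SD, n = 5 each, limma adjusted p = 0.147).

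*Serpinb5* (maspin), an epithelial serpin that does not inhibit proteases in the usual way, had 28.0, 13.98, 36.5, 36.8 and 18.8 in *Smad4del* mice, against 80.5, 67.9, 94.4, 168 and 73.3 in *Ctl* mice. The highest *Smad4del* mouse was well below the lowest *Ctl* mouse. It fell by 1.82 ± 0.37 on the log2 scale (limma adjusted p = 0.0165; exact permutation p = 0.00794, n = 5 each), and the call was kept with each mouse left out and lost with the macrophage marker level as a covariate, where the log2 fold change was -1.70 (adjusted p = 0.0645).

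The Serpinb genes with the highest counts had small fold changes and were not called. *Serpinb9* had 5353, 4893, 5528, 4599 and 5060 in *Smad4del* mice, against 4729, 6515, 5412, 5075 and 4518 in *Ctl* mice (log2 fold change -0.04 ± 0.10, limma adjusted p = 0.849). *Serpinb6b* had 3021, 2461, 3206, 3527 and 2966 in *Smad4del* mice, against 2695, 3892, 3786, 2554 and 3488 in *Ctl* mice (-0.10 ± 0.14, adjusted p = 0.669). *Serpinb6a* had 2586, 2341, 2612, 2461 and 2301 in *Smad4del* mice, against 3726, 2730, 2248, 2934 and 2184 in *Ctl* mice (-0.14 ± 0.13, adjusted p = 0.514). The cohorts overlapped for these 3 genes, and 19.9% of the windows of *Serpinb6a* occur in other genes. *Serpinb8* averaged 115 ± 63.2 in *Smad4del* and 130 ± 57.2 in *Ctl* mice, *Serpinb9b* 134 ± 53.4 in *Smad4del* and 142 ± 51.5 in *Ctl* mice, and *Serpinb1b* 12.7 ± 4.22 in *Smad4del* and 20.9 ± 18.2 in *Ctl* mice (SD, n = 5 each).

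The remaining members include serpins that do not inhibit proteases. *Serpinf1* (PEDF), which restrains vessel growth, had 333, 287, 236, 330 and 299 normalized counts in *Smad4del* mice, against 665, 382, 724, 566 and 563 in *Ctl* mice. All *Smad4del* mice were below all *Ctl* mice. *Serpinf1* fell by 0.94 ± 0.18 on the log2 scale (limma adjusted p = 0.0110; exact permutation p = 0.00794, n = 5 each), and the call was kept with each mouse left out and in all other alternatives but the endothelial covariate, which left -0.27.

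*Serpinh1*, which helps fold collagen, had 3445, 4328, 6278, 4010 and 4211 in *Smad4del* mice, against 2231, 4453, 3965, 3073 and 3706 in *Ctl* mice (log2 fold change 0.36 ± 0.19, limma adjusted p = 0.246). The cohorts overlapped. The median log2 fold change of 21 genes for collagen chains and their processing was -0.56. Beside 2.43% higher and 4.69% lower of all genes tested, 0 of the 21 were higher and 6 lower in *Smad4del*. Of the 4 with the smallest p, *Bmp1*, the protease that trims procollagen, had 1271 ± 154 in *Smad4del* and 1925 ± 302 in *Ctl* mice, *Crtap*, a partner of the collagen prolyl hydroxylase, 691 ± 35.9 in *Smad4del* and 943 ± 129 in *Ctl* mice, *Col5a1* 181 ± 52.8 in *Smad4del* and 485 ± 210 in *Ctl* mice, and *Col6a1* 803 ± 293 in *Smad4del* and 2208 ± 928 in *Ctl* mice. Fibroblast markers were lower beside them, and their part was not tested.

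Neither of the hormone carriers was called. *Serpina7*, which carries thyroid hormone, had 728, 1258, 1070, 1402 and 924 in *Smad4del* mice, against 1793, 992, 688, 1348 and 1812 in *Ctl* mice (log2 fold change -0.25 ± 0.27, limma adjusted p = 0.576). *Serpina6*, the carrier of corticosteroids, is given per mouse because of its spread, which was noticed in the data. It had 2404, 476, 510, 165 and 2316 in *Smad4del* mice, against 296, 729, 0, 18.2 and 15.5 in *Ctl* mice. The highest *Smad4del* mice, A5216 and A5624, and the highest *Ctl* mice, A5215 and A5219, were those with high *Serpina3h*. The log2 fold change of 4.33 ± 1.52 was not called (limma adjusted p = 0.0976, exact permutation p = 0.0556, n = 5 each) and was called without *Ctl* mouse A5219, at 5.40. *Serpina11* averaged 12.1 ± 17.7 in *Smad4del* and 9.23 ± 10.4 in *Ctl* mice, and *Serpina12* (vaspin) 17.1 ± 18.4 in *Smad4del* and 4.10 ± 2.46 in *Ctl* mice.

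The 13 members with reads but a mean below 10 reached at most 36.9 normalized counts in a *Smad4del* mouse and 31.6 in a *Ctl* mouse. *Serpina1f* had 56 reads over 3 *Smad4del* mice and 0 in *Ctl*, and *Serpinb1c* 4 reads in *Smad4del* and 36 in *Ctl*. *Serpine3* had 33 reads in *Smad4del* and 50 in *Ctl*. Nothing was tested at this depth, and 14 members without a read were *Serpina3a*, *Serpini2*, *Serpinb11*, *Serpinb3a* to *Serpinb3d*, *Serpinb6d*, *Serpinb6e*, *Serpinb9c*, *Serpinb9d*, *Serpinb9e*, *Serpinb9f* and *Serpinb9g*.

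Protease inhibitors outside the family and other target proteases gave a mixed picture. For each list here, the shares over all genes tested were 2.43% higher and 4.69% lower. Of 19 tested inhibitors of other families 2 were higher and 0 lower. *Wfdc18* had 21434 ± 2433 in *Smad4del* and 8027 ± 2410 in *Ctl* mice (log2 fold change 1.46), and *Ambp* (alpha-1-microglobulin and bikunin) 29016 ± 4625 in *Smad4del* and 18729 ± 3102 in *Ctl* mice (0.63; SD, n = 5 each; limma adjusted p = 0.00107 and 0.0201). Of 8 epithelial membrane serine proteases 1 was higher and 2 lower, *Prss22* with 41.7 ± 22.2 in *Smad4del* and 130 ± 51.2 in *Ctl* mice and *Prss23* with 892 ± 225 in *Smad4del* and 1505 ± 284 in *Ctl* mice. Of 9 cathepsins 0 were higher and 2 lower, *Ctsk* with 51.2 ± 28.4 in *Smad4del* and 184 ± 42.3 in *Ctl* mice and *Ctsl* with 5053 ± 819 in *Smad4del* and 8102 ± 2214 in *Ctl* mice. The part of macrophage RNA in the cathepsin values was not tested. Of 18 acute phase genes 1 was higher, *Apcs* (serum amyloid P) with 1461 ± 391 in *Smad4del* and 728 ± 211 in *Ctl* mice, and 1 lower, with a median of -0.04.

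Genes of the response to TGFβ and the related BMPs, in which SMAD4 is the shared partner of the signalling SMADs, were lower where called. Of 25 such genes 0 were higher and 9 lower in *Smad4del* (2.43% and 4.69% of all genes tested). Their log2 fold changes were below 0 for 24 of 25, with a median of -0.57, against -0.005 for all genes. Endothelial markers were lower as well, with a median of -1.54, and their part in these values was not tested. *Ltbp2*, a matrix protein of the family of latent TGFβ binding proteins, had 271 ± 79.8 in *Smad4del* and 1871 ± 185 in *Ctl* mice. *Id1* had 262 ± 53.5 in *Smad4del* and 1382 ± 262 in *Ctl* mice, and *Id3* 974 ± 158 in *Smad4del* and 4322 ± 1331 in *Ctl* mice. *Smad6*, an inhibitory SMAD, had 345 ± 28.1 in *Smad4del* and 724 ± 102 in *Ctl* mice.

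Hepatocyte marker levels, the mean log2 value of 21 marker genes, overlapped between the cohorts, from 9.77 to 11.06 in *Smad4del* and from 9.45 to 10.49 in *Ctl* mice. Over the 10 mice, 2 of 35 serpin genes, *Serpina1a* and *Serpina1e*, passed the test of r for a relation with this level after adjustment over 140 relations computed with 4 marker lists. *Serpina1a* gave Pearson's r = 0.87 (permutation p = 0.00127, adjusted p = 0.0296) and Spearman's rho = 0.85 (permutation p = 0.00259, adjusted p = 0.0560, which missed the threshold), and r was 0.75 without the 2 mice farthest from the median. After subtracting cohort means, r was 0.88. For *Serpina1e* the mice fell into separate ranges of 5 mice each, above 200 and below 66 counts, too few within a range for a relation, so none is given. The 5 mice above 200 also had the 5 highest counts of *Serpina1a*, so that its r rests in part on the same grouping. In *Serpina1a*, 42.8% of the exon windows also occur in another gene. No relation with the macrophage level passed the adjustment.

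Endothelial levels were 8.81 to 9.99 in *Smad4del* and 10.40 to 11.78 in *Ctl* mice, and stellate and fibroblast levels 8.03 to 8.65 in *Smad4del* and 8.74 to 10.48 in *Ctl* mice, so that a relation over all mice cannot be told apart from the difference between the cohorts, and 5 mice of a cohort are too few for one within it. As a description over 10 mice after subtracting cohort means, r with the endothelial level was 0.80 for *Serpina3n*, 0.72 for *Serpinf1*, 0.36 for *Serpinb2*, 0.14 for *Serpina10*, 0.039 for *Serpinb5*, -0.032 for *Serping1*, -0.12 for *Serpinb1a* and -0.59 for *Serpine2*. Of all 35 genes, it was highest for *Serpina3f*, 0.93, and lowest for *Serpinh1*, -0.84.

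**Figure D5:**
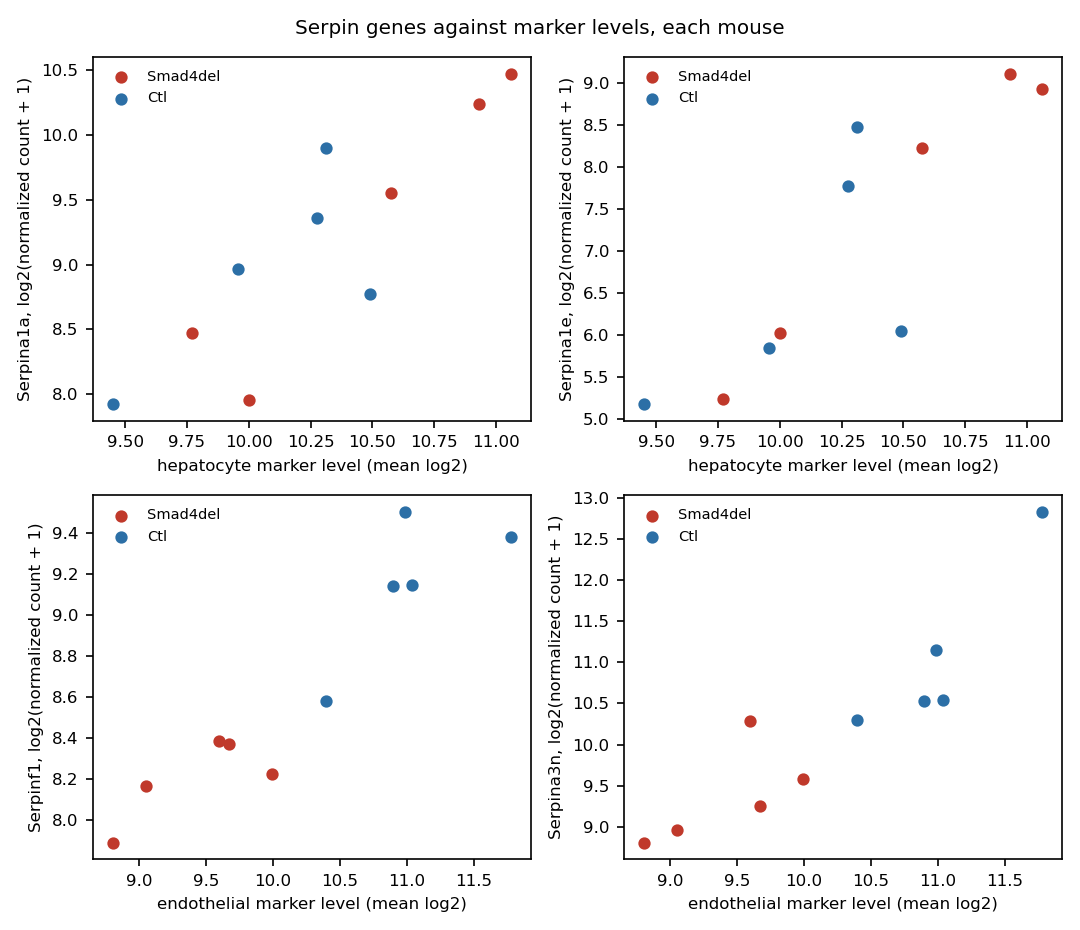
Log2(normalized count + 1) of *Serpina1a* and *Serpina1e* against the hepatocyte marker level and of *Serpinf1* and *Serpina3n* against the endothelial marker level, 1 point per mouse (*Smad4del* red, *Ctl* blue). Hepatocyte levels overlap between the cohorts, and endothelial levels do not.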

How the data were processed

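RNA of reactive cholangiocytes from 5 *Smad4del* and 5 *Ctl* mice was read from one end after amplification. The deposited signal values are reads per gene divided by size factors of DESeq2 1.14.1 (R 3.3.2). The authors made them after trimming in Trimmomatic 0.36, alignment by STAR to GRCm38.p5 and counting by featureCounts on GENCODE M12. The processing notes also name mm9. The submitters' labels also carry a cell line tag and a culture protocol, while the methods describe sorted liver cells, as taken here.

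In each mouse 100% of values were whole multiples of the value of 1 read (tolerance 1e-06), which gave back the reads. In mouse A5217 1 read is worth 0.998, too close to 1 for such steps to decide, so DESeq2 1.42.0 and edgeR 4.0.16 on these reads were alternatives only, with and without it. The main test was limma 3.58.1 (R 4.3.3) with a trended prior on log2(normalized count + 1), with genes of a mean of at least 10 and no term but the cohort, and adjustment was by Benjamini-Hochberg at 0.05. Fold changes of low genes are understated on this scale. Exact permutation tests of single genes were two-sided, and correlations had 100000 permutations. The fits were tested on simulated data.

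Of the genes that match the symbol rule, 1 is not reported here. Members and gene lists were chosen with earlier results of these data known. Values per mouse are given for called members, the 12 with the highest mean and those without overlap between cohorts, and for members named as noticed in the data. From each list the up to 4 called genes with the smallest p in the more frequent direction are named, or the 2 with the highest mean. Alternatives were pseudocounts of 0.5 and 10, no filter, a minimum of 50, quantile and median scaling, array weights, 3 marker levels and *Xist* as covariates, and each mouse left out.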

Additional observations from a re-analysis of the deposited data

Results flagged for a closer look

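Of 70 sets of 5 mice (35 serpin genes, 2 cohorts), 7 held a mouse whose gap to its nearest neighbour was above the 95% limit of Dixon's test on the log2 scale. For normally distributed values chance alone marks about 1 in 20 such sets. This rate does not hold for sets with zeros, such as those of *Serpinb2* and *Serpina3c* below. *Serpina1c* was marked in both cohorts, at 120 normalized counts in *Smad4del* mouse A5216 with 1499 as the next value, and at 20.7 in *Ctl* mouse A5215 with 1642 as the next. *Serpina3m* stood at 305 in *Ctl* mouse A5215, with 80.7 as the next value. *Serpini1* was low in *Ctl* mouse A5626, at 7.67 with 51.8 as the next. *Serpind1* was low in *Smad4del* mouse A5218, at 110 with 212 as the next. *Serpinb2* was above 0 in 1 *Ctl* mouse only, A5221 at 3.70, and *Serpina3c* was at 0 in 1 *Smad4del* mouse only, A5217, with 6.09 as the next value.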

How the results depend on the processing

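*Serpina10*, *Serpinf1*, *Serpinb5* and *Serpinb1a* kept their calls with each mouse left out, which gave 1 to 4 higher and 3 to 6 lower serpin genes. The count of 3 higher was 1 in DESeq2 without A5217 and with the hepatocyte or macrophage covariate, and 0 in edgeR without A5217 (4 at unadjusted p under 0.05) and with the endothelial covariate. The count of 5 lower was 9 in DESeq2, 2 in edgeR without A5217 (*Serpinf1* and *Serpinb1a*) and 0 with the endothelial covariate. DESeq2 added *Serpina1b* as higher and *Serpina3f*, *Serpina3g*, *Serpind1* and *Serpinf2* as lower, of which *Serpina3g* and *Serpind1* were called without A5217. *Serpina1b* was also called under median scaling and with array weights, *Serpina3g* with array weights and the macrophage covariate, and *Serpinf2* with the hepatocyte covariate. DESeq2 gave no adjusted p for *Serpinb2*. The call of *Serpine2* was lost in edgeR with all mice and in DESeq2 without A5217. Without a filter on low values the calls of *Serpine2* and *Serpina3n* were lost. At a pseudocount of 10 that of *Serpinb2* was lost. Over all genes 362 were higher and 697 lower (34.2% higher), against 626 and 639 (49.5%) under median scaling, 579 and 607 (48.8%) under quantile scaling, 894 and 1290 in DESeq2, and 313 and 598 in edgeR. The causes were not tested.

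Of 35 genes 20 changed sign in some alternative, 1 of them called. With the endothelial covariate the log2 fold changes that changed sign were *Serpina3n* 0.49, *Serpinb8* 0.72, *Serpinc1* 0.058, *Serpinh1* -0.61, *Serpina1c* -4.58, *Serpina11* -0.088, *Serpina3c* 2.65, *Serpina3f* 1.504, *Serpina3h* 3.25, *Serpina3i* 2.34, *Serpina3m* 0.70, *Serpinb9b* 0.15, *Serpinb1b* -0.25, *Serpinb6a* 0.13 and *Serpina7* 0.050. With the macrophage covariate they were *Serpinb8* 0.41, *Serpinc1* 0.21, *Serpina1c* -1.61, *Serpina3c* 1.30, *Serpina3h* 0.91, *Serpina3i* 0.081, *Serpina3m* 0.55, *Serpinb9* 0.018 and *Serpinb6a* 0.072. With the hepatocyte covariate they were *Serpina1a* -0.26, *Serpina1e* -0.17, *Serpina11* -0.48, *Serpina3k* -0.091, *Serpinb6b* 0.028, *Serpinb9b* 0.036 and *Serpinb1b* -0.44. With *Xist* they were *Serpina11* -0.22, *Serpinb9b* 0.055 and *Serpinb1b* -0.26. *Serpina3c* was 0.35 with array weights, 0.014 under median scaling, 0.13 at a pseudocount of 0.5 and 0.31 under quantile scaling, where *Serpinb9* was 0.0092 and *Serpinb9b* 0.063. *Serpinb9* was 0.029 under median scaling. *Serpinb1b* was -0.23 at a pseudocount of 10, -0.72 in DESeq2 and -0.71 in edgeR, and -0.54 in both without A5217. With mice left out, the ranges that crossed 0 were -0.44 to 0.92 for *Serpina11*, -0.64 to 1.57 for *Serpina1c*, -0.73 to 0.73 for *Serpina3c*, -0.74 to 0.000841 for *Serpina3m*, -0.83 to 0.54 for *Serpinb1b*, -0.47 to 0.012 for *Serpinb8*, -0.088 to 0.044 for *Serpinb9* and -0.28 to 0.079 for *Serpinb9b*. No paired analysis was possible because every mouse number occurs once.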

Other observations

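Another 5 serpin symbols with a pseudogene suffix lay outside the rule. *Serpina3e-ps* had 24.9 and 12.5 normalized counts in *Smad4del* mice A5216 and A5624, against 81.6 and 5.10 in *Ctl* mice A5215 and A5219, and 0 in the other 6 mice. These are the 4 mice with the highest *Serpina3h* counts. The other 4 symbols had at most 6.26 counts in any *Smad4del* mouse and 5.44 in any *Ctl* mouse.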
